A study of Homo sapiens with 18 samples.

Results

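The comparison set NB4 cells labelled TG2 knockout against wild-type NB4 cells after 72 h with 1 µM all-trans retinoic acid (ATRA). It rests on 6 of the 18 arrays of the series, 3 biological replicates per genotype, chosen by the genotype and time in their titles. NB4 is an established line from acute promyelocytic leukemia. The other arrays are 3 per genotype from untreated cultures and 3 per genotype after 48 h of ATRA, and every ATRA culture received the same dose. RNA of whole cultures was labelled from 300 ng of total RNA and read on Affymetrix whole-transcript arrays. The titles call the modified cells knockout, while their sample codes carry the letters KD. How the gene was altered and whether the line is 1 clone are not stated in the labels.

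TG2, the product of TGM2, is an enzyme that crosslinks proteins through glutamine and lysine residues and also binds GTP, and its gene is a direct target of retinoic acid receptors. ATRA drives promyelocytic leukemia cells into neutrophil-like cells that gain adhesion receptors, chemokines and an oxidative burst and lose proliferative gene expression. Interferon-stimulated genes, which this differentiation also engages, are switched on through interferon receptors, and many share a promoter element built from a pair of GAAA-type repeats.

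No gene passed a Benjamini-Hochberg adjusted p of 0.05 in the limma fit to the 12 ATRA arrays, so every 72 h genotype difference given here missed that threshold. In untreated cells, which varied less, 195 of 18417 genes (1.06%) passed it in another fit, to all 18 arrays with a weight per group. Under that other fit 14 probe sets passed at 72 h. In the fit to the 12 ATRA arrays the share of probe sets called at 72 h was 0% of 33297. There 5 probe sets (0.0150%) had an adjusted p under 0.1. The smallest, 0.0538, belonged to a probe set not assigned to exactly 1 gene, with a difference of 2.01. Another such probe set differed by 1.75 (adjusted p = 0.0869). At an unadjusted p under 0.05 there were 1124 of 18417 genes (6.10%), of which 570 were higher in the knockout cells (3.09%) and 554 lower (3.01%). With the replicate number as a block, 1698 genes (9.22%) had an unadjusted p under 0.05, and again none passed the adjusted threshold. The groups did not overlap for 2301 genes (12.5%), and the median difference over all genes was 0.00 on the log2 scale. The middle 90% of gene differences (5th to 95th percentile) ran from -0.38 to 0.40.

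The replicates of the ATRA groups spread more widely than untreated ones. The median SD per probe set was 0.22 in wild-type and 0.23 in knockout cells at 72 h, against 0.08 and 0.10 in untreated cells. On the first principal component, which carried 57.1% of the variance and set ATRA-treated from untreated arrays, knockout replicate 2 lay at 30.0, nearer the untreated arrays than the other 72 h arrays at 46.3 to 54.4. The untreated arrays lay at -89.9 to -84.7. Wild-type replicate 2 stood below its 2 partners for the interferon-stimulated genes described further on, and the p-values measure only the spread among these cultures.

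TGM2 itself read 12.54, 12.19 and 12.39 in the 3 wild-type arrays and 11.61, 10.87 and 11.25 in the 3 knockout arrays (log2 signal). All 3 knockout arrays were below all 3 wild-type arrays, and knockout replicate 2 was the lowest. The difference was -1.13 ± 0.20 (log2, SE), which places the knockout signal at 45.7% of wild-type (95% interval 33.6% to 62.1%, adjusted p = 0.257, limma). With the replicate block, the adjusted p was 0.0613.

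TGM2 was among the brightest probe sets in both genotypes, at the 99.6th percentile of all probe sets in wild-type and the 97.6th in knockout cells. Untreated cells of either genotype had far lower signal, 6.43 ± 0.17 in wild-type and 6.39 ± 0.11 in knockout cells (SD, n = 3). The 72 h level was 5.95 above the untreated level in wild-type and 4.85 above it in knockout cells, on the log2 scale. The genotype difference at 72 h minus that of untreated cells was -1.09 ± 0.25 (adjusted p = 0.343, limma). At 48 h the knockout cells read -1.31 against wild-type. Whether the probes lie in an altered part of the gene is not given in the sources used here, so these transcript levels do not check the loss of the protein.

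Of the other transglutaminase family members, which include the keratinocyte enzyme TGM1 and the coagulation factor subunit F13A1, 8 had values between -0.48 and 0.11. TGM5, an epidermal transglutaminase, read 7.68, 7.11 and 7.08 in wild-type and 7.03, 6.88 and 6.51 in knockout arrays, a difference of -0.48 (unadjusted p = 0.0421, adjusted p = 0.817). The groups of TGM5 did not overlap, but wild-type replicate 3 and knockout replicate 1 were close.

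**Figure D1:**
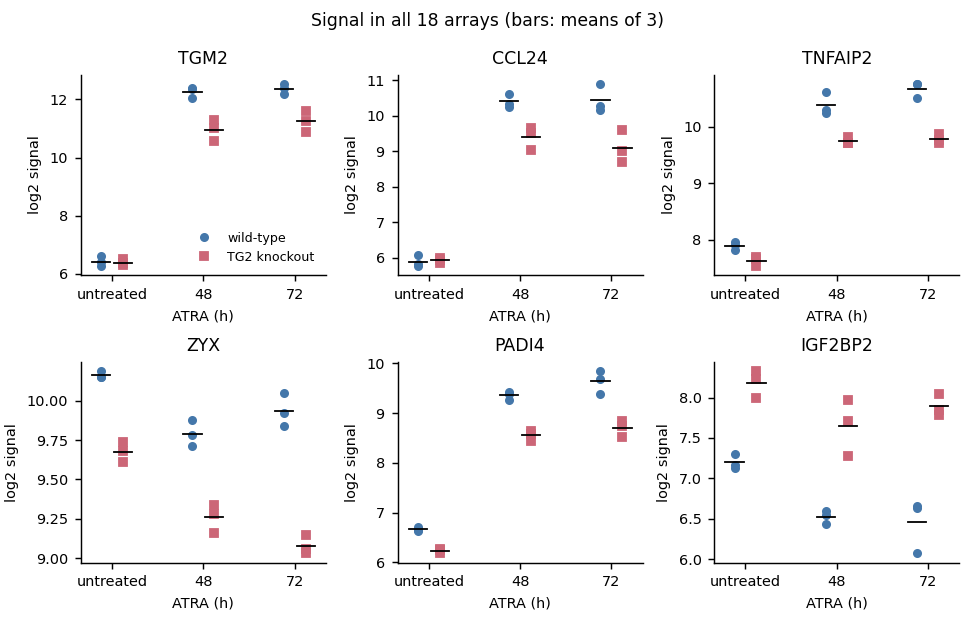
Log2 signal of TGM2, CCL24, TNFAIP2, ZYX, PADI4 and IGF2BP2 in all 18 arrays, by hours of ATRA, with wild-type arrays as circles, knockout arrays as squares and the mean of 3 as a bar. TGM2 and CCL24 started level in both genotypes and were apart at 48 h and 72 h, whereas TNFAIP2, ZYX, PADI4 and IGF2BP2 were already apart in untreated cells.

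The 12 genes per direction with the smallest p are described next, as values that missed the threshold (adjusted p from 0.0869 to 0.609). They were picked by p alone, which itself favours groups that are apart. The groups of none of them overlapped (12.5% of all genes did not overlap). Those lower in the knockout cells included chemokine, adhesion and ATRA-responsive genes. Zyxin (ZYX), a focal adhesion protein that follows actin assembly, read 10.05, 9.84 and 9.92 in wild-type and 9.03, 9.06 and 9.15 in knockout arrays. The 3 arrays of each genotype lay close together, and the difference was -0.86 ± 0.11 (adjusted p = 0.0869). Zyxin also differed by -0.49 in untreated cells and by -0.53 at 48 h.

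TNFAIP2, a gene inducible by tumor necrosis factor and by retinoic acid, read 10.76, 10.50 and 10.75 in wild-type and 9.71, 9.87 and 9.76 in knockout arrays. No knockout array came near a wild-type one, with a difference of -0.89 ± 0.13 (adjusted p = 0.0869). Its 72 h level was 2.78 above untreated cells in wild-type and 2.15 above them in knockout cells. PADI4, which converts histone arginine to citrulline during release of chromatin by neutrophils, read 9.85, 9.39 and 9.69 against 8.74, 8.85 and 8.53. The knockout arrays were all below, by a mean of -0.94 ± 0.15 (adjusted p = 0.156), and a difference of -0.43 was present before ATRA (adjusted p = 0.000611).

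CCL24, the eosinophil chemoattractant eotaxin-2, had the largest difference of these 12 genes. It read 10.90, 10.28 and 10.17 in wild-type and 8.99, 9.59 and 8.68 in knockout arrays. Knockout replicate 2 was the highest of its group and still below every wild-type array. The difference was -1.36 ± 0.25, a 2.57-fold lower signal in the knockout cells (adjusted p = 0.257). Untreated cells differed by 0.03, and at 48 h wild-type cells read 10.40 ± 0.19 and knockout cells 9.40 ± 0.32 (SD, n = 3). SELP, which encodes the adhesion receptor P-selectin, read 7.30, 7.01 and 7.46 against 6.39, 6.28 and 6.29, a difference of -0.94 (adjusted p = 0.257).

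Among the rest of the lower set, SIGLEC12, a member of the sialic acid-binding lectin family, differed by -0.90, LFNG, a glycosyltransferase that modifies Notch, by -0.62, and PLXNB2, a semaphorin receptor, by -0.60. MRPL49, a protein of the large mitochondrial ribosomal subunit, read 8.84, 9.29 and 8.92 in wild-type and 7.94, 8.46 and 8.23 in knockout arrays (-0.81), and was lower in untreated knockout cells as well (-0.48). OBP2B, a lipocalin of the odorant-binding type, and OR1L6, an olfactory receptor, differed by -0.88 and -1.07. These last 2 showed differences of only -0.16 and -0.03 at 48 h, and OR1L6 lay at the 18.6th percentile of probe sets in wild-type cells.

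Among the genes higher in the knockout cells, IGF2BP2, an RNA-binding protein that stabilises messenger RNAs, read 6.63, 6.66 and 6.07 in wild-type and 7.85, 8.04 and 7.78 in knockout arrays. Its 3 knockout arrays were all above the wild-type arrays, by a mean of 1.44 ± 0.20 (2.71-fold, adjusted p = 0.0869). The difference was present in untreated cells (0.98) and at 48 h (1.13). STAP1, an adaptor of tyrosine kinase signalling, and CA2, carbonic anhydrase 2, were likewise apart before ATRA. STAP1 read 4.11, 4.16 and 4.36 against 5.09, 5.88 and 5.46 at 72 h (1.27), and differed by 1.34 in untreated cells. Its signal was low, at the 14.9th percentile of probe sets in wild-type cells at 72 h. CA2 read 6.05, 5.95 and 5.90 against 6.66, 7.08 and 6.81 (0.88), and differed by 0.70 in untreated cells.

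SLC7A2, a transporter of cationic amino acids such as arginine, had the largest difference upward. It read 7.14, 7.86 and 7.53 in wild-type and 8.95, 8.92 and 9.16 in knockout arrays, a difference of 1.50 ± 0.30 (2.83-fold, adjusted p = 0.434). In untreated cells the knockout arrays were above by 0.16 (adjusted p = 0.553), and the 72 h level minus the untreated level was -2.17 in wild-type and -0.83 in knockout cells. At 48 h the SLC7A2 difference was 0.87 with overlapping groups, and the knockout SD was 0.75. RPF2, a ribosome assembly factor for the 5S ribonucleoprotein, read 7.69, 8.11 and 8.04 against 8.82, 8.77 and 8.84 (0.86, adjusted p = 0.204). A second probe set of RPF2 gave 0.59, in the same direction.

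The other genes of the higher set differed by 0.63 to 0.95. They were DNAJC19, a chaperone partner of mitochondrial protein import, UBXN8, which tethers the p97 ATPase to the endoplasmic reticulum, LAMC1, a laminin chain, IFT57, of intraflagellar transport, PHKA1, a phosphorylase kinase subunit, IRAK1BP1 and ACTR3C. At 48 h the groups of DNAJC19 (0.15), IRAK1BP1 (0.16), PHKA1 (0.16) and ACTR3C (-0.12) overlapped, and ACTR3C had the opposite sign.

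**Figure D2:**
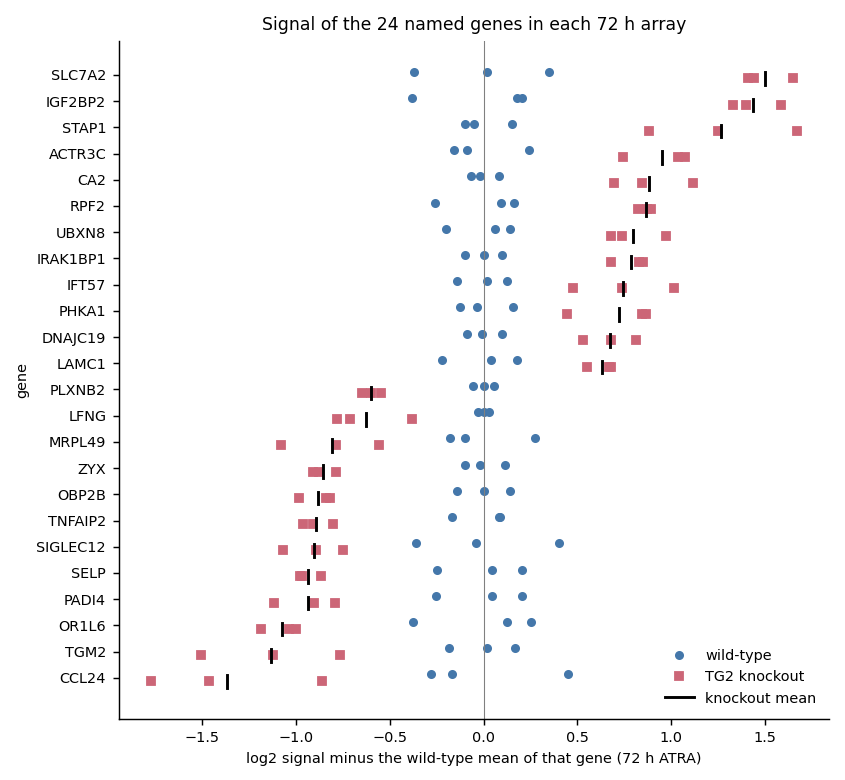
Log2 signal of the 24 genes with the smallest p in each 72 h array, given as the distance from that gene's wild-type mean, with wild-type arrays as circles, knockout arrays as squares and the knockout mean as a bar. The groups of all 24 genes are apart, from SLC7A2 at 1.50 to CCL24 at -1.36.

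The 48 h differences were not used to pick these genes, but the 48 h arrays share the estimate of the spread. A small shared spread lowers p at both times, so the 48 h p-values are not independent of the picking. Of the 24 genes, 23 had the same sign at 48 h and 18 had an unadjusted p under 0.05 there in the same direction (2.68% of all genes in either direction). In untreated cells 20 of 24 had the same sign, and 14 of 24 did not overlap in that direction (19.6% of all genes in either direction). The untreated difference passed the adjusted threshold for 9 of the 24 (ZYX, TNFAIP2, PADI4, MRPL49, IGF2BP2, STAP1, CA2, IRAK1BP1 and PHKA1), in the direction seen at 72 h. Over all 18417 genes the differences at 72 h and 48 h had the same sign for 54.2% and a Pearson correlation across genes of 0.258, where genes are not independent and each time has its own arrays. Among the 1124 genes with an unadjusted p under 0.05 at 72 h, 73.8% had the same sign at 48 h, which held for 414 of 554 lower genes and 416 of 570 higher ones.

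A direct test found no probe set whose genotype difference at 72 h departed from that at 48 h (0% called, smallest adjusted p = 1.00, limma), while 938 of them (2.82%) lay under 0.05 before adjustment. Set against untreated cells, over all 18 arrays with a weight per group, 0% of probe sets passed, 7 (0.0210%) had an adjusted p under 0.1 and 2515 (7.55%) an unadjusted p under 0.05. RAB27B, a small GTPase of secretory granules, was the nearest, with a genotype difference of 0.81 at 72 h and -0.48 in untreated cells (difference 1.29 ± 0.18, adjusted p = 0.0575).

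The interferon-stimulated genes nearly all read lower in the knockout cells. Of 59 listed genes, 55 had a probe set of their own, and 54 of them had a difference below 0, with a median of -0.53. Over all genes, 49.3% were below 0 and the median was 0.00. At an unadjusted p under 0.05, 19 members were lower and 0 higher, against 3.01% and 3.09% of all genes, and 11 members had knockout arrays entirely below wild-type arrays, against 5.59%. None passed the adjusted threshold. IFITM3, a membrane protein that blocks viral entry, was the exception at 0.39.

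To show the promoter element these genes are known for, the 250 bases upstream of the start site are printed for the 4 members with the smallest p that have an entry in the RefSeq promoter table (GRCh38.p14). Each runs 5′ to 3′ on the strand of the gene, with matches to the letters GAAA, any 2 bases and GAAA again, read on either strand, in capitals. IFI6 is at chr1:27672193-27672442 on the minus strand, IFIT1 at chr10:89392373-89392622 on the plus strand, LGALS3BP at chr17:78979924-78980173 on the minus strand, and GBP4 at chr1:89198943-89199192 on the minus strand.
IFI6: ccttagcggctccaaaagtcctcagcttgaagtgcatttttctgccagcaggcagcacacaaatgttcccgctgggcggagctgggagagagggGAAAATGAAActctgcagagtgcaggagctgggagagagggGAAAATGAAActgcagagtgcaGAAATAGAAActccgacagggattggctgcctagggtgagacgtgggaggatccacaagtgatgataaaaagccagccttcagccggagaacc
IFIT1: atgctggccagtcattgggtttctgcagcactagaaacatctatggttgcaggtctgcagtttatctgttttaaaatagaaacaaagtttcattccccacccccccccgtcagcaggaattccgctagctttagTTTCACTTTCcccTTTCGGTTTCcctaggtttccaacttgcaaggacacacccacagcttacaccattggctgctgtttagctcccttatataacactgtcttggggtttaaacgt
LGALS3BP: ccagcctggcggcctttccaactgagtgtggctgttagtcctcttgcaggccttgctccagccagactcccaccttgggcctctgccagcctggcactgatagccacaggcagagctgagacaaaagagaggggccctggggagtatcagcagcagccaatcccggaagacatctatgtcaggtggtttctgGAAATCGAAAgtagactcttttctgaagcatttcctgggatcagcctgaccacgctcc
GBP4: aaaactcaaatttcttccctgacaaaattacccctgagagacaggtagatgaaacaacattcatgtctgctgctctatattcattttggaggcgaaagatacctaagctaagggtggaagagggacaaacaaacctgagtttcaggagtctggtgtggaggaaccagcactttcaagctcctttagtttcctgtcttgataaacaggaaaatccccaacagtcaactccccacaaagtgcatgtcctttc
IFI6 holds 3 matches, whose first bases lie 156, 115 and 93 bases upstream, IFIT1 holds 2, at 116 and 103, LGALS3BP holds 1, at 58, and GBP4 holds 0. Of the 43 listed and measured genes with an entry, 23 (53.5%) held at least 1 match, against 1061 of 35116 promoters of the same length in the table (3.02%). A match describes the letters in the window and is not a measured binding site.

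IFI6, a mitochondrial and endoplasmic reticulum protein with antiviral and survival roles, had the smallest p of the list. It read 10.88, 9.66 and 10.83 in wild-type and 8.95, 9.26 and 9.32 in knockout arrays. Wild-type replicate 2 was more than 1 log2 unit below its partners, though still above each knockout array. The difference was -1.28 ± 0.31 (adjusted p = 0.667). IFI6 at 72 h stood 2.11 above untreated cells in wild-type and 1.04 above them in knockout cells.

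The RNA sensors and nucleases, which detect or cut viral RNA, had 9 of 9 members below 0 and a median of -0.57. OAS2, an oligoadenylate synthetase that activates RNase L, read 7.03, 5.77 and 7.01 in wild-type and 5.30, 5.17 and 5.26 in knockout arrays (-1.36 ± 0.38, adjusted p = 0.708). The knockout arrays were nearly level while wild-type replicate 2 lay between the groups. OAS1, a second synthetase named here after its values were seen, read 9.81, 7.88 and 9.68 against 8.15, 7.06 and 7.56 (-1.53), and its groups overlapped.

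The antiviral effectors, which include the IFIT, MX and IFITM proteins, had 18 of 19 members below 0 and a median of -0.60. IFIT1, which binds viral RNA lacking the host cap methylation, was chosen after its values were seen. It read 8.61, 6.11 and 8.29 in wild-type and 6.28, 5.45 and 5.46 in knockout arrays, the largest difference of the list (-1.94 ± 0.58, 3.84-fold, adjusted p = 0.749). Wild-type replicate 2 lay within the knockout range, so the groups overlapped. IFIT1 was 1.69 above untreated cells in wild-type at 72 h and -0.20 against untreated cells in knockout cells.

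The ubiquitin-like and ADP-ribose members had 10 of 10 below 0 (median -0.47), the signalling factors 5 of 5 (median -0.40), and the guanylate-binding and other members 12 of 12 (median -0.45). LGALS3BP, a secreted glycoprotein that binds galectins, read 10.85, 10.44 and 10.49 in wild-type and 10.09, 10.28 and 10.05 in knockout arrays (-0.45). It was 0.52 higher in untreated knockout cells, and the gap between the 72 h and untreated differences was -0.97 (adjusted p = 0.0996). GBP4, a guanylate-binding protein, read 5.93, 5.01 and 5.15 against 4.76, 4.73 and 4.51 (-0.70).

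In untreated cells the list's median difference was 0.02, and at 48 h it was -0.36 with 8 members lower at an unadjusted p under 0.05 (1.63% of all genes). The median of the list stood 1.09 above untreated cells in wild-type and 0.50 above them in knockout cells at 72 h, comparisons that share the 72 h arrays with the genotype difference.

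The size of this group difference depended on the replicate. The mean of the list was 7.95, 6.98 and 7.82 in the wild-type arrays and 7.15, 6.81 and 6.98 in the knockout arrays. Within same-numbered replicates the mean difference was -0.80, -0.18 and -0.84. Without wild-type replicate 2, 41 members were lower at an unadjusted p under 0.05, without replicate 2 of both genotypes 31, without knockout replicate 2 10, without wild-type replicate 3 7 and without wild-type replicate 1 5. Leaving out replicate 1 or 3 of both genotypes left 6 each. With the replicate block there were 38, against 4.38% of all genes in that fit.

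**Figure D3:**
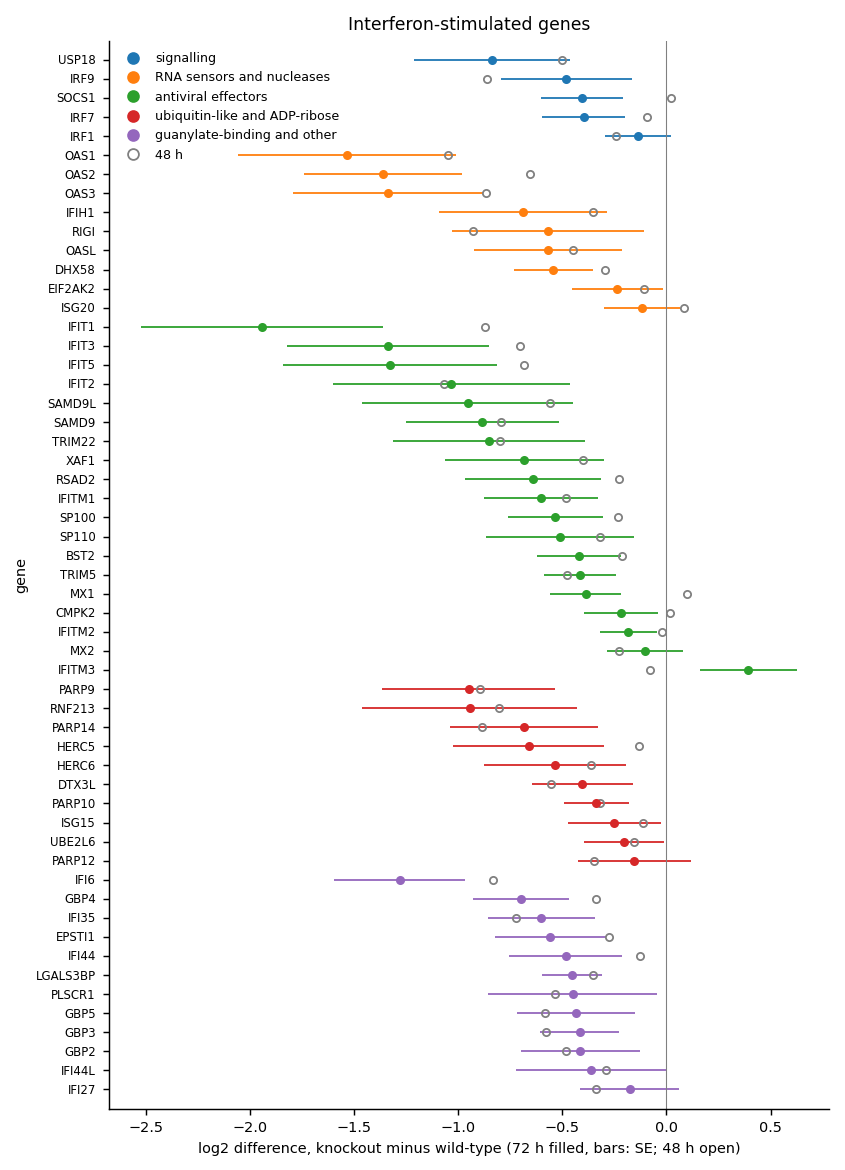
Log2 difference, knockout minus wild-type, of the 55 measured interferon-stimulated genes at 72 h (filled, coloured by role, bars show the SE) and at 48 h (open). All but IFITM3 lie left of 0 at 72 h, with IFIT1 farthest at -1.94.

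The ligands, receptors and kinases upstream of these genes had 0 of 12 members at an unadjusted p under 0.05 and a median of -0.20. TYK2, a kinase of the interferon receptors, differed by -0.22, and IFNAR2, a receptor subunit, by -0.54. With the replicate block 4 members were lower (4.38% of all genes in that fit). In class I antigen presentation, 12 of 13 members were below 0 (median -0.23). TAP1, the peptide transporter, read 9.18, 8.60 and 9.09 against 8.65, 8.03 and 8.58 (-0.54, unadjusted p = 0.0313), and its groups overlapped. PSME2, a proteasome activator, differed by -0.56. Without the block 1 member was lower and with it 4 (3.01% and 4.38% of all genes).

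The inflammatory genes were also mostly below 0. Of 25 measured chemokines, 3 were lower at an unadjusted p under 0.05 and 0 higher, against 3.01% and 3.09% of all genes. Their median was -0.19, and 6 were lower with the block (4.38% of all genes in that fit). After CCL24, CCL22, a chemoattractant for CCR4-bearing cells, had the smallest p and read 8.04, 7.78 and 7.65 against 7.22, 7.24 and 7.16 (-0.62). The groups of CCL22 were apart and the knockout arrays nearly level.

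Among 24 cytokines 5 were lower and 0 higher (median -0.17), against 3.01% and 3.09% of all genes. TNF, the tumor necrosis factor gene, read 7.54, 7.45 and 7.64 in wild-type and 6.42, 7.10 and 6.51 in knockout arrays (-0.87 ± 0.25, adjusted p = 0.718). Knockout replicate 2 lay nearest the wild-type arrays. IL16, a chemoattractant cytokine, differed by -0.58 with groups apart. TNFSF10, which encodes TRAIL, TGFB1 and IL1A were the remaining 3, at -0.60, -0.44 and -1.11.

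NF-kB subunits and targets had 17 of 20 members below 0 and a median of -0.38. At an unadjusted p under 0.05, 2 were lower and 0 higher (3.01% and 3.09% of all genes), and 10 were lower with the block (4.38%). TNF and TNIP1, an inhibitor of NF-kB signalling, were those 2, and TNIP1 read 9.29, 9.03 and 9.18 against 8.24, 8.60 and 8.62 (-0.68). The TNIP1 groups were apart. Of 23 receptors for chemokines and cytokines, 5 were lower and 0 higher (median -0.26, 8 lower with the block), against the same shares. CSF1R, the receptor for macrophage colony-stimulating factor, read 7.52, 6.63 and 7.38 against 6.37, 5.97 and 6.33 (-0.95, adjusted p = 0.667). Replicate 2 was the lowest array of either genotype. IL6R differed by -0.64 with overlapping groups.

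CSF1R also belongs to the monocyte and macrophage markers, of which 14 of 16 were below 0 (median -0.12). At an unadjusted p under 0.05, 4 were lower, against 3.01% of all genes. Those 4 were CSF1R, the sialoadhesin gene SIGLEC1 (-0.66), VSIG4 (-0.86) and CD68 (-0.47). The summed log2 signal of the 16 markers was 92.73 to 96.15 in wild-type and 90.18 to 92.15 in knockout arrays, and their part in the inflammatory and interferon results was not tested. In RNA of whole cultures, fewer cells of a type and less RNA per cell cannot be told apart.

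Genes of mature neutrophils were described by receptor, granule and enzyme. Of 23 surface receptors, 4 were lower and 0 higher (median -0.35), against 3.01% and 3.09% of all genes. With the block 10 were lower (4.38% of all genes in that fit). ITGAM, the CD11b chain of complement receptor 3, read 10.31, 9.70 and 10.27 against 9.47, 9.26 and 9.43 (-0.71 ± 0.20, adjusted p = 0.718). The groups did not overlap, and wild-type replicate 2 was the nearest to the knockout arrays. ITGAX, the CD11c chain, differed by -0.87 with overlap, while FPR2, a formyl peptide receptor, and PTAFR, the platelet-activating factor receptor, differed by -0.88 and -0.37 with groups apart.

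In specific and gelatinase granules 3 of 17 genes were lower and 1 higher (median -0.13), against 3.01% and 3.09% of all genes. MMP8, neutrophil collagenase, read 6.32, 5.16 and 5.65 against 4.60, 4.09 and 4.47 (-1.32 ± 0.33, adjusted p = 0.667), and SLPI, a protease inhibitor, differed by -0.63. TCN1, the cobalamin-binding protein of these granules, went the other way at 0.73, with overlapping groups. Azurophil granules had 1 lower of 14, DEFA4 (-0.74), and LYZ, lysozyme, had the next smallest p and a difference of 0.44. With the block 2 were lower (4.38% of all genes in that fit).

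The NADPH oxidase had 1 of 8 lower (median -0.12), against 3.01% of all genes, or 4.38% with the block. Counts of 1 in lists this short are given as values only. CYBA, its p22phox subunit, read 9.90, 9.80 and 9.78 against 9.47, 9.60 and 9.35 (-0.35), and the proton channel HVCN1 differed by 0.28. Among 7 genes of citrullination and chromatin release, PADI4 was the only one with an unadjusted p under 0.05, and GSDMD, the pore-forming gasdermin D, differed by -0.34. Leukotriene and prostanoid synthesis had 1 of 10 lower, PTGS1, cyclooxygenase 1 (-0.86), followed by the thromboxane synthase TBXAS1 (-0.37), and 3 lower with the block.

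Integrins and focal adhesion genes had 6 of 25 lower and 0 higher at an unadjusted p under 0.05 (3.01% and 3.09% of all genes). In 7 the knockout arrays were entirely below (5.59% of all genes) and in 1, ITGA4, entirely above (6.90%). The median was -0.18, and with the block 1 member was higher. Besides zyxin, PXN, the scaffold paxillin, read 9.08, 8.77 and 8.43 in wild-type and 8.32, 8.17 and 7.79 in knockout arrays (-0.67). Replicate 3 was the lowest of both genotypes. ITGB3, the beta 3 integrin, FERMT3, kindlin-3, which activates integrins, PTK2B, a focal adhesion kinase relative, and ITGA6 were the others, from -0.29 to -0.92. At 48 h 7 of the 25 were lower (1.63% of all genes). Other lists with lower members at 48 h included chemokine and cytokine receptors (5), class I presentation (4), neutrophil receptors (3) and chemokines (2). Lower members at 48 h numbered 0 for the cytokines (median 0.025), the NF-kB genes and the monocyte and macrophage markers.

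Retinoid targets included 4 of 22 lower and 0 higher (3.01% and 3.09% of all genes), led by TNFAIP2 and TGM2, with a median of -0.17. The list's median stood 1.42 above untreated cells in wild-type and 1.14 in knockout cells. Among targets named after their values were seen, DHRS3, a retinal reductase, was at -0.04 and ASB2, a ubiquitin ligase subunit, at -0.50, each with overlapping groups. Myeloid transcription factors had a median of 0.02, with 1 of 20 lower (3.01% of all genes), the repressor BCL6 (-0.87). ID2, an inhibitor of helix-loop-helix factors, differed by -0.63, and the block gave 2 lower and 1 higher.

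The group on the other side of 0 was that of MYC and ribosome biogenesis. Of its 22 measured genes, 21 were above 0, with a median of 0.37, and 5 were higher and 0 lower at an unadjusted p under 0.05 (3.09% and 3.01% of all genes). At 48 h the list's median was 0.18, with 0 members higher at that p (1.04% of all genes). DKC1, the pseudouridine synthase dyskerin, read 9.68, 9.94 and 9.75 in wild-type and 10.12, 10.24 and 10.28 in knockout arrays (0.42 ± 0.14, adjusted p = 0.764). The DKC1 groups were apart. MRTO4, a factor of large subunit assembly, read 7.42, 8.43 and 7.91 against 8.34, 9.18 and 8.68 (0.81), where each knockout array was above its same-numbered wild-type array but the groups overlapped.

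WDR12, PES1 and WDR43, which act in ribosomal RNA processing, were the other 3, at 0.49, 0.39 and 0.41. The mean difference of the list was 0.26, 0.32 and 0.37 in replicates 1, 2 and 3, and with the block 12 members were higher and 1 lower (4.84% and 4.38% of all genes in that fit). These genes stood below untreated cells after ATRA, by a median of -0.98 in wild-type and -0.68 in knockout cells. Mitochondrial ribosomal proteins leaned the same way, with 17 of 20 above 0 and a median of 0.14. At an unadjusted p under 0.05, 1 was higher, MRPL3 (0.40), and 1 lower, MRPL49 (3.09% and 3.01% of all genes). With the block 3 were higher.

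Proliferation genes had medians near 0, with replicates of unlike sign. Mitosis genes had a median of 0.03 and DNA replication genes 0.04, with 0 of 32 and 0 of 33 at an unadjusted p under 0.05 (with the block 1 DNA replication gene was lower). The mean difference in replicates 1, 2 and 3 was -0.27, 0.21 and 0.14 for mitosis and -0.21, 0.16 and 0.08 for DNA replication. The smallest p belonged to CENPE, a kinetochore motor (0.34), and HMMR (0.21) in the first list and to RRM2, a ribonucleotide reductase subunit (-0.38), and CDT1, a licensing factor (-0.20), in the second. In both genotypes these lists stood below untreated cells by medians of -0.91 and -0.89 for mitosis and -0.82 and -0.77 for DNA replication, wild-type first.

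The amino acid stress response, the target genes of ATF4, varied from culture to culture. Its mean was 8.33, 8.36 and 9.18 in wild-type and 9.22, 8.50 and 9.32 in knockout arrays, so the median difference of 0.33 came with 0 of 18 members at an unadjusted p under 0.05. PHGDH, the first enzyme of serine synthesis, read 7.71, 7.93 and 9.49 against 10.05, 8.51 and 10.07 (1.17 ± 0.65, adjusted p = 0.858). Wild-type replicate 3 lay between knockout replicate 2 and the other knockout arrays, so the groups overlapped. PSAT1, the next enzyme of that pathway, differed by 0.76. With the block 7 members were higher (4.84% of all genes in that fit), with replicate differences of 0.90, 0.14 and 0.13.

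Cholesterol synthesis and uptake varied likewise, with mean differences of -0.84, 0.20 and -0.19 in the 3 replicates. Its median was -0.26, with 12 of 13 members below 0 and 0 at that p. MVD and SREBF2 had the smallest p there, at -0.39 and -0.21. Glycolysis (0 of 17, ENO2 at -0.41 and PFKFB4 at -0.54), heat shock proteins (0 of 10, HSPD1 at 0.17 and DNAJA1 at -0.32) and p53 targets (1 lower of 13, BBC3 at -0.35, then MDM2 at 0.21) had medians of -0.08, -0.04 and 0.00. Of all genes, 3.01% were lower at an unadjusted p under 0.05. Genes for the clearance of dying cells, a process in which TG2 takes part in macrophages, had 0 of 25 at an unadjusted p under 0.05 (1 lower and 1 higher with the block) and a median of -0.03. ANXA1, which encodes annexin A1, read 8.74, 8.68 and 8.56 against 8.92, 9.68 and 8.89 (0.50), and TIMD4, a phosphatidylserine receptor, differed by 0.27. Of the 25 clearance genes, 15 were below 0 and 10 above, with differences from -1.30 to 0.50.

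**Figure D4:**
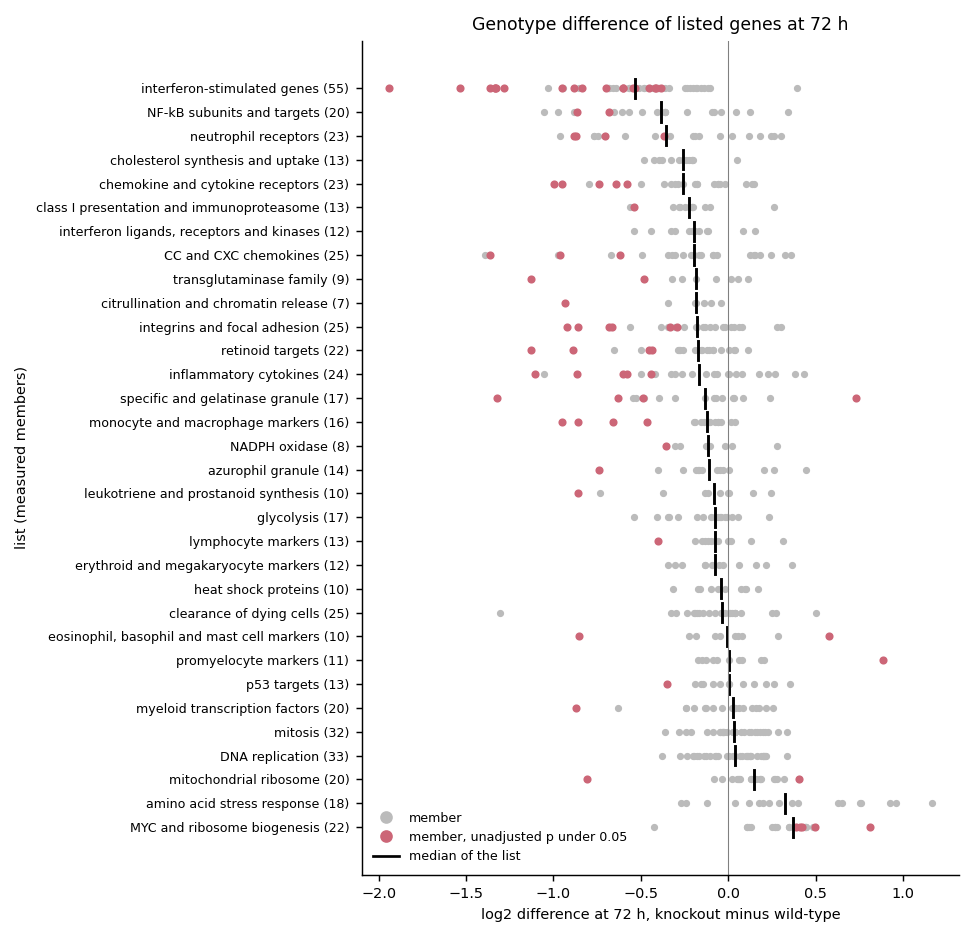
Log2 difference, knockout minus wild-type at 72 h, of each measured member of 32 gene lists, with members at an unadjusted p under 0.05 in red and the list median as a bar. The interferon-stimulated genes lie at one end with a median of -0.53 and the MYC and ribosome biogenesis genes at the other with 0.37.

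Cell type markers were compared between the genotypes, which does not show what the cells are. Promyelocyte markers had a median difference of 0.00, and MPO, myeloperoxidase, was at 12.22 in both genotypes. MS4A3, a membrane protein of granulocyte precursors, read 6.86, 7.10 and 6.60 in wild-type and 7.34, 8.22 and 7.65 in knockout arrays (0.88, adjusted p = 0.667), and ELANE, neutrophil elastase, differed by -0.17. The MS4A3 groups were apart, with knockout replicate 2 the highest array. Lymphocyte (1 lower of 13, NKG7 at -0.40, then GZMB at 0.31), erythroid and megakaryocyte (0 of 12, ITGA2B at -0.30 and AHSP at 0.37) and eosinophil, basophil and mast cell markers (CLC at -0.85 lower and CPA3 at 0.57 higher, of 10) had medians of -0.07, -0.07 and -0.01. Of all genes, 3.01% were lower and 3.09% higher at an unadjusted p under 0.05.

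The genotype difference at 72 h was also set against the response of wild-type cells to 48 h of ATRA, which uses none of the 72 h arrays. This grouping was chosen after the values were seen and carries no test. Genes entered the groups through the wild-type response alone, which favours genes that respond more in wild-type than in knockout cells. No grouping by the knockout response was made. In wild-type cells 470 genes (2.55%) were up by at least 2-fold at 48 h with an adjusted p under 0.05, and 1477 (8.02%) were down. Of the 79 genes up by at least 4-fold, 93.7% were lower in knockout cells at 72 h, with a median of -0.45. At an unadjusted p under 0.05, 27 (34.2%) were lower and 0 higher, against 3.01% and 3.09% of all genes. Of the 391 genes up by less than 4-fold, 72.4% were lower (median -0.19), with 71 (18.2%) lower and 6 (1.53%) higher at that p.

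Genes down in wild-type cells leaned upward. The 1355 genes down by less than 4-fold had a median of 0.13 and 72.6% above 0, and the 122 genes down further had a median of 0.15. At an unadjusted p under 0.05, 114 (8.41%) and 16 (13.1%) of them were higher, and 17 (1.25%) and 2 (1.64%) lower. The other 16470 genes had a median of 0.00, with 2.65% lower and 2.64% higher at that p. Without knockout replicate 2, the array nearest the untreated ones, the 5 medians from most down to most up were 0.06, 0.08, 0.00, -0.15 and -0.35. Without replicate 2 of both genotypes they were 0.10, 0.09, 0.01, -0.23 and -0.47.

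**Figure D5:**
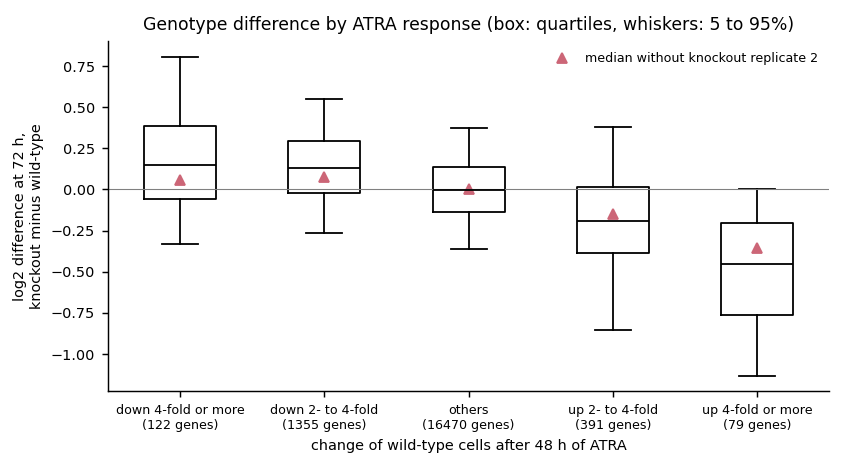
Log2 difference at 72 h, knockout minus wild-type, of genes grouped by the change of wild-type cells after 48 h of ATRA, with boxes at the quartiles, whiskers at 5% and 95%, and triangles for the median without knockout replicate 2. The median runs from 0.15 in the genes most down to -0.45 in those most up.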

How the data were processed

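The deposited values, 1 for each probe set on each of 18 arrays, were read as log2 signal because of their range. How the authors scaled, background-corrected and normalized them is not given in the sources used here. No further normalization was applied, and no array was left out. Per the labels, replicates are biological and numbered 1 to 3. Of 33297 probe sets, 19460 belong to exactly 1 gene, 1754 to several and 12083 to none in the platform annotation, and 974 repeat another's values. Gene counts use 1 probe set per gene (18417), the one with the highest mean.

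limma 3.58.1 (R 4.3.3) was fitted to the 12 ATRA arrays, 1 mean per group, with a mean-variance trend and Benjamini-Hochberg adjustment over all probe sets. Untreated comparisons used all 18 arrays with a weight per group. The members and the 32 gene lists (563 of 613 genes measured) were chosen with earlier results of these data known. Named genes were TGM2, the 12 smallest p per direction (none was called), and the 2 smallest p of each list. The 12 came from all probe sets of 1 gene, without non-coding, antisense, open reading frame, LOC, FAM, KIAA and FLJ symbols. Groups that did not overlap were required only of called genes. Other genes, named to complete a small count or to show an exception, were chosen after their values were seen. The number of arrays limits the precision.

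Same-numbered replicates at 72 h deviated together over probe sets (correlations 0.103, 0.160 and 0.138, against -0.163 to 0.030 for unlike numbers), so blocked values are given where they move a count by over 1.5 times. The pairing comes from the data and the label numbers. Alternatives covered the arrays that set the spread, weights, the block, normalization, dim probe sets, moderation and each replicate left out.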

Additional observations from a re-analysis of the deposited data

How the results depend on the processing

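No alternative reversed the sign of any of the 24 named genes. Probe sets called at 72 h numbered 32 with all 18 arrays and a common spread (15 higher, 17 lower), 14 with a weight per group, all shared with the 32, 1 with a weight per array, 0 with the replicate block, and 0 to 2 with a replicate left out (2 without wild-type replicate 3). The common spread includes the less variable untreated arrays. Under it TGM2 passed (-1.13, adjusted p = 0.0267), and listed genes called were 5, or 3 with a weight per group. Over the alternatives the TGM2 difference ran from -1.31 to -0.94. Probe sets with an unadjusted p under 0.05, 1998 as reported, numbered 3713 with the common spread, 3323 with the replicate block on the 6 arrays of 72 h, 2964 with the block on 12 arrays, 1080 among brighter probe sets, which are fewer, and 1304 to 2243 with a replicate left out. Interferon-stimulated genes lower at that p numbered 38 with the replicate block, 31 with the block on 6 arrays, and 5 to 41 with a replicate left out, and their median ran from -0.85 to -0.36. For the 72 h minus untreated difference, calls numbered 2 with a weight per array, among brighter probe sets and among probe sets of 1 gene, 1 with the replicate block or robust moderation, and 0 to 10 with a replicate left out (10 without wild-type replicate 2). Causes beyond those named were not tested.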
